A study of Mus musculus with 2 samples.

Results

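The receptors through which myeloid cells sense growth factors and cytokines were followed in mouse bone marrow cultures, by 9 genes: Csf1r, Csf2ra, Csf2rb, Csf2rb2, Csf3r, Il6ra, Il6st, Il4ra and Il3ra. They were chosen by name, as 9 of the 32285 genes in the count tables, and each was detected in both libraries. The study compared myeloid-derived suppressor cells (MDSC) grown with and without dabrafenib (DAB), a kinase inhibitor developed against mutant BRAF. The marrow came from C57BL/6 females 10 weeks old, and in both conditions the culture lasted 4 days in medium that held GM-CSF at 50 ng/mL and the same concentration of IL-6. The DAB culture also received 1.5 µM dabrafenib, and the control culture received a matching amount of its solvent DMSO. Each condition was 1 single-cell library made with a 5′ kit, and how many mice stood behind a library was not stated. With 1 library per condition, the drug and any other difference between the cultures cannot be told apart. No difference between the libraries was therefore tested, and every interval below is a 95% interval that covers counting error only.

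Most of these receptors join a chain that binds 1 cytokine to a chain that is shared between cytokines and carries the signal. Csf2ra binds GM-CSF and Il3ra binds IL-3, and both pair with the common beta chain Csf2rb. Mice carry a further beta chain gene, Csf2rb2, whose product serves IL-3. Il6ra binds IL-6 and pairs with Il6st, the signalling chain of the IL-6 family, while Il4ra pairs with Il2rg or with Il13ra1. Csf3r, the G-CSF receptor of neutrophils, and Csf1r, the M-CSF receptor tyrosine kinase of monocytes and macrophages, each pair with themselves. Cytokine receptors without a kinase of their own signal through JAK kinases and STAT factors, and SOCS proteins and Cish are induced by that signal and dampen it.

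The beta chain genes are shown first, because they lie side by side on chromosome 15 and are nearly identical, so that reads can be hard to assign. In the GENCODE vM21 annotation of GRCm38 (mm10), Csf2rb spans chr15:78325752-78353847 on the plus strand and Csf2rb2 spans chr15:78282507-78305721 on the minus strand. Their coding sequences of 2688 and 2634 bases were identical in 92.9% of aligned columns, with 125 mismatches and 66 gap columns. Reads of a 5′ library begin near the start of the transcript, so the first 150 coding bases are given, in which capitals mark the 6 bases that differ. For Csf2rb they come from exonic sequence at chr15:78335207-78335294 and chr15:78336348-78336409, and for Csf2rb2 from chr15:78298142-78298229 and chr15:78297041-78297102.
Csf2rb: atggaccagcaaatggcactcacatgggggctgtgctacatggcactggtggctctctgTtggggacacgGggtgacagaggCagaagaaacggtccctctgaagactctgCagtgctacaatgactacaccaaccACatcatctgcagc
Csf2rb2: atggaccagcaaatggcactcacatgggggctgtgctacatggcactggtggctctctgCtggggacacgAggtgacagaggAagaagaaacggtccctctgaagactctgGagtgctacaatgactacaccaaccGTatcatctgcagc
Within the first 600 transcript bases of either gene, 58 of 511 windows of 90 bases (11.4%) were also found unchanged in the other gene. A read that lies within such a window cannot be given to 1 of the genes, and the split between them is therefore uncertain. No other annotated gene of the count tables overlapped any of the 9 receptor genes on the same strand.

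After removal of cells with over 10% mitochondrial UMIs (unique molecular identifiers) and of called doublets, 9032 DMSO and 10476 DAB cells were analysed, with median depths of 7510 and 9393 UMIs. The libraries shared 152 barcode sequences before filtering and 120 among the cells kept. Clustering without the 9 receptor genes gave 28 clusters, and 15 of these took 1 of 12 class names from marker lists. The other 13 clusters, with 59.7% of the DMSO cells and 55.4% of the DAB cells, are called by their leading genes. The named cells were mostly granulocyte-like and monocyte-like, as the label MDSC has it, but B cell-like, basophil or mast cell-like, eosinophil-like and dendritic cell-like cells were also present. The chemokine-high granulocyte-like class took its name from 5 chemokine genes alone (Ccl3, Ccl4, Cxcl2, Cxcl3 and Ccl6). The name therefore does not by itself make its cells granulocytes. Over whole libraries the 7 basophil or mast cell markers summed to 129 UMIs per 1000000 UMIs in DMSO and 222 in DAB, the 6 eosinophil markers to 17 and 91.8, and the 7 B cell markers to 71.3 and 55.7. The classes were unequally filled, with 985 DMSO against 166 DAB cells in the immature monocyte-like class and 223 against 1089 in the mature PMN-like class (polymorphonuclear, mature neutrophils). Ratios are therefore given over all cells, standardized (each cluster weighted alike in both libraries) and within clusters. Class names are rebuilt, so a class ratio is followed by its range over 11 clusterings of the same data, or 10 where a class was not found in 1 of them, where that range bears on what is said of it.

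Over all cells, the binding chain of the GM-CSF receptor stood higher in the DAB library, while the G-CSF receptor and the signalling chain of the IL-6 family stood lower. Ratios are log2 values of DAB over DMSO, and 1 of size 0.5 or more is called past the fold. Csf2ra was the only member past the fold upward (1 of 9), where 13.3% of the 12121 genes with at least 200 UMIs were past it, and 15.8% of the 16333 genes with at least 20 UMIs. Csf3r and Il6st were past it downward (2 of 9), against 14.7% and 19.4% of those genes. The 3 of 9 members past the fold in either direction compare with 28% and 35.2%. With standardized ratios the same 3 members were past it, against 11.0% of genes upward, 13.3% downward and 24.2% in either direction. The other 6 members lay between -0.38 and 0.44. The median ratio was -0.22 for the 9 members and -0.01 for all genes with at least 200 UMIs. A scaling by the median of ratios moved every ratio by 0.05 and turned no member's direction.

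**Figure D1:**
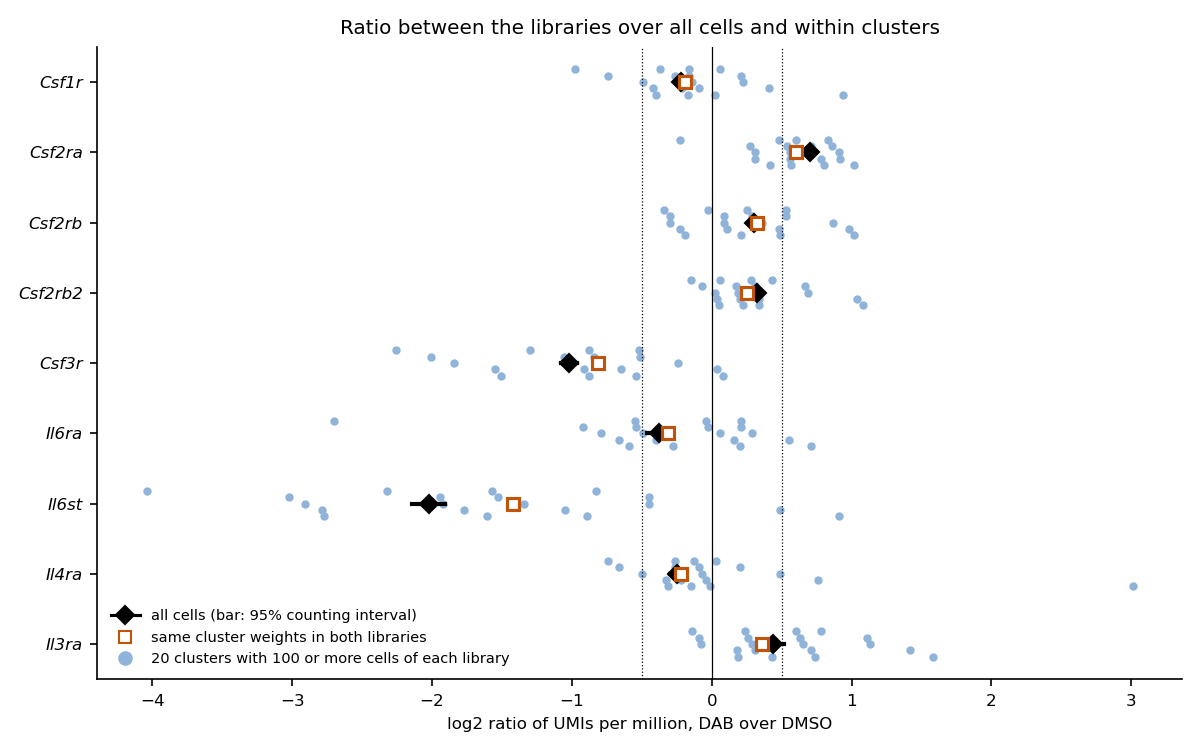
Log2 ratio of UMIs per 1000000 UMIs, DAB over DMSO (x axis), for each receptor gene: black diamonds are all cells with the 95% counting interval, open squares weight each cluster alike in both libraries, blue points are the 20 clusters with 100 or more cells of each library, and dotted lines mark 0.5 in either direction. For Csf2ra 19 of 20 points lie right of 0, for Csf3r and Il6st 18 of 20 lie left of it, and the squares lie on the side of the diamonds for all 9 genes.

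The alpha chain of the GM-CSF receptor, Csf2ra (chr19:61223957-61228429, minus strand), was measured at 103 CPM (UMIs per 1000000 UMIs of the same cells) in DMSO and at 167 CPM in DAB. The ratio was 0.70 (0.66 to 0.73), and 0.60 when standardized. It was higher in DAB in 19 of the 20 clusters that held 100 or more cells from each library, and past the fold upward in 14 of them. Among 5909 genes with at least 20 UMIs in every one of these clusters, 13.8% were higher in DAB in 18 or more of the 20, and 3.25% in all 20. The ratios of Csf2ra ran from -0.23 to 1.02 with a median of 0.59, so the difference was found in cells of many kinds. The exception was the mature monocyte-like class, marked by MHC class II genes, at 102 CPM in DMSO and 86.4 CPM in DAB (-0.23, -0.37 to -0.10). Over the clusterings this ratio ranged from -0.23 to 0.11. Marker sums of this class also differed between the libraries and are given below with Il4ra.

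In DMSO the order of Csf2ra levels was gradual. From chemokine-high granulocyte-like cells at 132 CPM through macrophage-like (124), mature PMN-like (123), mature monocyte-like (102), intermediate granulocyte-like (100 CPM) and immature monocyte-like cells (92.4) to granulocyte progenitor-like cells at 88.9 CPM, every class overlapped its neighbour in interval. The ends of this order were apart in interval, at 121 to 143 CPM and 77.4 to 102 CPM. Activated dendritic cell-like cells were below all of these classes, at 55.5 CPM. B cell-like cells, which should lack this chain, held 11.8 CPM in DMSO and 20.2 CPM in DAB, a level that free RNA or misplaced cells can give. In DAB the order was steeper. Chemokine-high granulocyte-like cells stood at 216 CPM, apart in interval from intermediate granulocyte-like (177) and immature monocyte-like cells (175), and mature monocyte-like cells were now near the bottom, at 86.4 CPM, overlapping activated dendritic cell-like cells at 74.5 CPM. The 31 eosinophil-like cells of DAB held 251 CPM, which overlapped the chemokine-high class, and DMSO had only 5 such cells.

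The largest named differences in Csf2ra were in immature monocyte-like cells, the class led by Slc7a2, Nos2, Mmp12 and Arg1, with 92.4 CPM in DMSO and 175 CPM in DAB (0.92, 0.77 to 1.07). Intermediate granulocyte-like cells, led by the secondary granule genes Camp, Ltf and Ngp, had a ratio of 0.83 (0.66 to 1). All 3 clusters of the chemokine-high class were past the fold upward. The cluster led by Cxcl3 and Ccl2, with 181 DMSO and 1149 DAB cells, had 127 and 221 CPM. The cluster led by Ccl4 and Spp1 had 148 and 244 CPM, and that led by Ccl3 and Atp6v0d2 had 93.2 and 138 CPM. Large unnamed clusters were alike in this, with 130 CPM in DMSO and 192 CPM in DAB in the cluster led by Il2ra, Cpa3 and Cd200r3, and 106 and 193 CPM in the cluster led by the stefin A genes Cstdc5 and Stfa1. Macrophage-like cells had a ratio of 0.31 (0.01 to 0.61), and mature PMN-like cells one of 0.27 (0.01 to 0.53), the lowest over the clusterings, which reached 0.66.

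The common beta chain Csf2rb was measured at 790 CPM in DMSO and 971 CPM in DAB, a ratio of 0.30 (0.29 to 0.31). Csf2rb2 was measured at 236 and 295 CPM, a ratio of 0.32 (0.30 to 0.34). The sum of both genes, which does not depend on how reads were split between them, had a ratio of 0.30. Any shared reads that were counted for neither gene are missing from it. Neither gene was past the fold over all cells. When each cell was thinned to 1500 UMIs, Csf2rb was seen in 53.6% of 8596 cells in DMSO against 59.7% of 10185 in DAB, and without thinning in 80.6% against 86.1%.

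The direction of the beta chain ratios differed between classes. Intermediate granulocyte-like cells held 178 CPM of Csf2rb in DMSO and 360 CPM in DAB (1.02, 0.89 to 1.14), and Csf2rb2 followed with 48.5 and 99.9 CPM. In immature monocyte-like cells Csf2rb was 1010 CPM in DMSO and 1850 CPM in DAB (0.87, 0.83 to 0.92), and Csf2rb2 was 247 and 400 CPM. Within this class the chemokine markers summed to 6430 CPM in DMSO and 13300 CPM in DAB and the macrophage markers to 276 and 689 CPM, and within intermediate granulocyte-like cells the class's own markers summed to 74300 and 52300 CPM, the chemokine markers to 3230 and 6640 CPM and the immature monocyte markers to 78.5 and 657 CPM. The part of these differences in the receptor ratios was not tested. The immature monocyte-like ratios depended on the clustering, from 0.29 to 0.91 for Csf2rb and from 0.33 to 0.75 for Csf2rb2. Mature monocyte-like cells went the other way, with Csf2rb at 870 and 709 CPM (-0.30, -0.34 to -0.25) and Csf2rb2 at 320 and 288 CPM. Mature PMN-like cells held 693 CPM of Csf2rb in DMSO and 498 CPM in DAB, a ratio of -0.48 that ranged from -0.48 to 0.01 over the clusterings, while Csf2rb2 differed there by -0.07 (-0.25 to 0.12), and by up to 0.27 in another clustering.

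The order of the classes changed at the top for Csf2rb. Macrophage-like cells were highest in DMSO, at 1450 CPM, and immature monocyte-like cells were highest in DAB, at 1850 CPM, above the macrophage-like cells at 1680 CPM without overlap of intervals. Each of these places rested on the clustering, and was kept in 8 of 10 other clusterings in DMSO and in 5 of 10 in DAB. Among neighbours in the DMSO order only mature PMN-like and activated dendritic cell-like cells (690 CPM) overlapped. B cell-like cells were lowest of the 8 larger classes in both libraries, with 27.9 and 55.2 CPM. Csf2rb2 went from basophil or mast cell-like cells at 390 CPM in DMSO down to immature monocyte-like cells at 247 CPM with overlap at every step. Well below these were granulocyte progenitor-like (61.6 CPM), intermediate granulocyte-like (48.5 CPM) and B cell-like cells (11.8 CPM).

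The share of Csf2rb2 in the UMIs of both beta chain genes was 23.0% in DMSO and 23.3% in DAB. It differed more between classes than between libraries. Basophil or mast cell-like cells had the highest share, 45.1% (157 of 348 UMIs, 39.8 to 50.5) in DMSO and 45.4% (41.8 to 49.0) in DAB. Activated dendritic cell-like cells followed with 31.6% and 33.0%, and macrophage-like cells had 17.1% and 16.7%. T or NK cell-like and eosinophil-like cells, with fewer than 5 UMIs in DMSO, aside, mature PMN-like cells showed the widest gap between the libraries, 26.3% (23.8 to 29.0) in DMSO and 32.2% (30.7 to 33.8) in DAB. These shares describe UMIs as they were assigned, not transcripts.

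**Figure D2:**
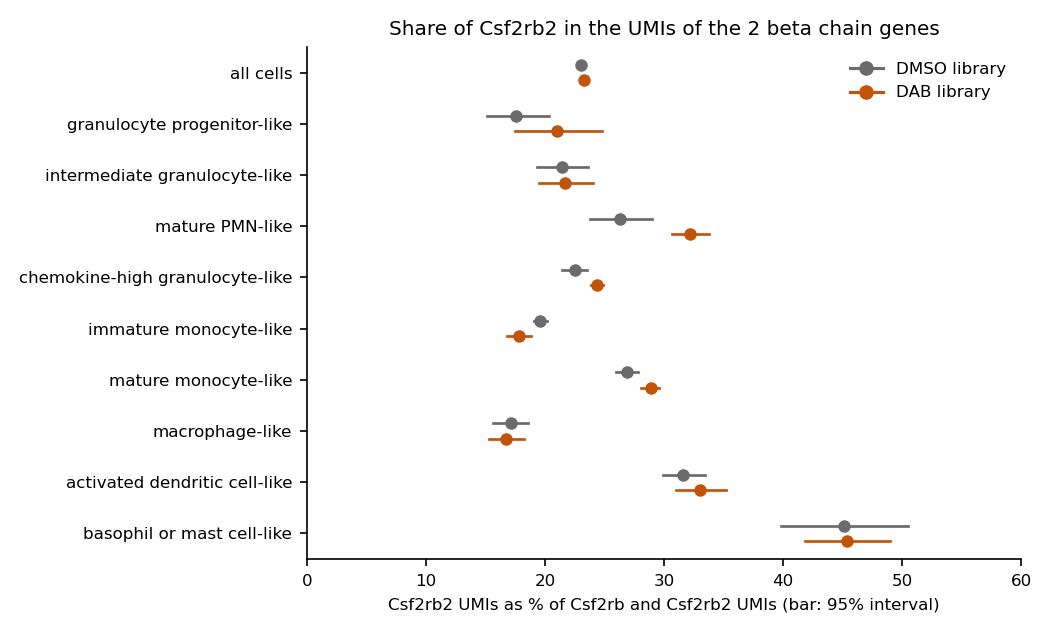
Csf2rb2 UMIs as a percentage of the UMIs of Csf2rb and Csf2rb2 (x axis), for all cells and by class (y axis), in the DMSO library (grey) and the DAB library (orange), with exact binomial 95% intervals. Basophil or mast cell-like cells sit at 45.1% and 45.4% and macrophage-like cells at 17.1% and 16.7%. Of the classes drawn, mature PMN-like cells show the widest gap between the libraries, and B cell-like, T or NK cell-like and eosinophil-like cells are left out.

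Il3ra (chr14:14346275-14356011, plus strand), the IL-3 binding chain, was highest in basophil or mast cell-like cells, which held 246 CPM in DMSO and 249 CPM in DAB, a ratio of 0.02 (-0.34 to 0.38). These were 52 DMSO and 85 DAB cells. The next class in DMSO, activated dendritic cell-like cells, held 32.1 CPM, and from there each class overlapped the next down to B cell-like cells at 4.41 CPM (3 UMIs). The 31 eosinophil-like cells of DAB held 70.9 CPM from 33 UMIs, above all DAB classes other than basophil or mast cell-like cells, with overlap only towards the 21 T or NK cell-like cells.

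Over all cells Il3ra was measured at 22.7 CPM in DMSO and 30.9 CPM in DAB, a ratio of 0.44 (0.37 to 0.52), and 0.36 when standardized. It was higher in DAB in 17 of the 20 clusters and past the fold in 10 of them. The share of all genes was counted for 18 or more clusters only, at 13.8%. Il3ra had as few as 11 UMIs in a cluster and is not among the genes of that share. Several clusters led by granulocyte genes were past the fold. Intermediate granulocyte-like cells held 16.8 CPM in DMSO and 36.2 CPM in DAB (1.11, 0.70 to 1.51), the cluster led by S100a9 and Ly6g held 14 and 30.7 CPM, and the cluster led by Retnlg, Ly6g and Mmp13 held 9.54 and 28.5 CPM from 7 and 121 UMIs. Chemokine-high granulocyte-like cells had 17.2 and 28.2 CPM (0.72, 0.37 to 1.09). Mature PMN-like cells had only 9 and 17 UMIs, a ratio of -1.16 (-2.40 to 0.19) that ranged from -1.16 to 0.79 over the clusterings, and no direction is read from it. In mature monocyte-like cells the ratio was -0.08 (-0.36 to 0.20).

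Among the named classes the chains of the IL-6 receptor were highest in different cells. Il6ra (chr3:89864059-89913196, minus strand) was highest among named classes in mature PMN-like cells, at 35.8 CPM in DMSO and 41.9 CPM in DAB (0.23, -0.26 to 0.74), a ratio that ranged from -0.22 to 0.25 over the clusterings. In DMSO these overlapped immature monocyte-like cells at 26.2 CPM, and mature monocyte-like cells at 19.8 CPM overlapped chemokine-high granulocyte-like cells at 19.7 CPM. Activated dendritic cell-like cells held 3.61 CPM in DMSO (10 UMIs) and 0.556 CPM in DAB (1 UMI), so the class with the most Il6st in DAB had nearly no Il6ra. The unnamed cluster led by Gm26917 was high in both chains. In DMSO it held 76.4 CPM of Il6ra, the highest of 24 clusters, and 56.4 CPM of Il6st. In DAB it held 52.2 CPM of Il6ra and 22.3 CPM of Il6st. Its cells were shallow, with median depths of 2615 UMIs in DMSO and 3620 UMIs in DAB. Their median mitochondrial share of 4.2% was the highest of all clusters, and the part of this in the receptor levels was not tested. Over all cells Il6ra was 24.6 CPM in DMSO and 18.9 CPM in DAB, a ratio of -0.38 (-0.46 to -0.30), lower in 12 and higher in 8 of the 20 clusters.

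Within clusters Il6ra was lower in DAB or differed by less than counting error. Immature monocyte-like cells had 26.2 CPM in DMSO and 18 CPM in DAB (-0.54, -1 to -0.11), and mature monocyte-like cells had 19.8 and 14.9 CPM (-0.40, -0.72 to -0.08). The unnamed clusters led by H2-Q10 (22.2 and 11.8 CPM) and by Il2ra (23.2 and 13.4 CPM) were past the fold downward. So was the stefin A cluster, with 29.2 and 18.5 CPM (-0.66, -0.98 to -0.33), and 7 of the 20 clusters were so in all. The 2 clusters past the fold upward were B cell-like and macrophage-like cells, on 3 and 7 and on 18 and 26 UMIs, with intervals that held 0. The unnamed cluster led by Csf3r and Ddt had 50.8 and 53.0 CPM, the cluster led by S100a9 had 30.4 and 29.7 CPM, and intermediate granulocyte-like cells had 15.5 and 15.2 CPM.

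Il6st (chr13:112464070-112510086, plus strand), the signalling chain, had the ratio of largest size among the 9 genes over all cells. It was measured at 25.9 CPM in DMSO and 6.36 CPM in DAB, from 2384 and 891 UMIs. The ratio was -2.02 (-2.14 to -1.91), and -1.42 when standardized, so part of the difference lay in the unequal filling of clusters. The immature monocyte-like class was highest in DMSO in 5 of 10 other clusterings. In DMSO immature monocyte-like, activated dendritic cell-like and macrophage-like cells held 60.7, 57.0 and 54.0 CPM with overlapping intervals, and classes named as granulocytes held 13 CPM or less. In DAB activated dendritic cell-like cells held 80.0 CPM, apart in interval from macrophage-like cells at 29.1 CPM and immature monocyte-like cells at 19.8 CPM, which overlapped each other. The 21 T or NK cell-like cells of DAB, on 2 UMIs (32.5 CPM, 3.93 to 117), overlapped each of these classes. The immature monocyte-like class alone held 44.4% of the Il6st UMIs of DMSO with 10.9% of its cells, and 6.06% of those of DAB with 1.58% of its cells. Its own ratio was -1.61 (-2.04 to -1.22), and from -3.05 to -1.55 over the clusterings.

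Il6st was lower in DAB in 18 of the 20 clusters and past the fold downward in 16. Of the genes with at least 20 UMIs in every cluster, 11.2% were lower in DAB in 18 or more, but Il6st had as few as 6 UMIs in a cluster and is not among those genes. The exceptions were activated dendritic cell-like cells (0.49, 0.15 to 0.83) and B cell-like cells, where 5 and 15 UMIs gave 0.91 (-0.62 to 2.72). Mature monocyte-like cells had 33.4 CPM in DMSO and 16.1 CPM in DAB (-1.05, -1.32 to -0.78). The gap was widest in the stefin A cluster, with 27.1 CPM in DMSO and 1.65 CPM in DAB (-4.04, -4.63 to -3.47), from 92 UMIs in 210 cells and 36 UMIs in 1047 cells. Basophil or mast cell-like cells held no Il6st UMI in either library.

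Among named classes the G-CSF receptor gene Csf3r (chr4:126024550-126044440, plus strand) was highest in those named as granulocytes. In DMSO mature PMN-like cells held 257 CPM, intermediate granulocyte-like cells 76.1 CPM, chemokine-high granulocyte-like cells 54.7 CPM and granulocyte progenitor-like cells 33.9 CPM, each apart in interval from the next. Both monocyte classes, at 3.71 and 3.44 CPM, stood below the 8.81 CPM (6 UMIs) of B cell-like cells, which should lack this receptor, and are read as background. In thinned cells Csf3r was seen in 35.7% of 221 mature PMN-like cells of DMSO and in 29.3% of 1084 of DAB, and without thinning in 60.5% and 53.0%. It was seen in 1 of 129 thinned B cell-like cells of DMSO and in 0 of 177 of DAB, which allows a share of up to 1.69%. Median depths before thinning were 4332 and 3790 UMIs in these mature PMN-like cells, and 4123 and 5240 UMIs in the B cell-like cells.

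Csf3r was 60.5 CPM in DMSO and 29.8 CPM in DAB over all cells, a ratio of -1.02 (-1.08 to -0.96), and -0.81 when standardized. It was lower in DAB in 18 of the 20 clusters and past the fold downward in 17, some of which held background levels only. Of the genes with at least 20 UMIs in every cluster, 11.2% were lower in 18 or more. Csf3r had as few as 8 UMIs in a cluster and is not among those genes. The cluster with the highest level was unnamed and led by Csf3r itself, with Ddt and Gstt1, although Csf3r was left out of the clustering. It held 569 CPM in DMSO and 362 CPM in DAB (-0.65, -0.77 to -0.53), and 34.5% of all Csf3r UMIs of DMSO against 18.8% of those of DAB. Other unnamed clusters with Ly6g among their leading genes had wider gaps, with 149 and 52.0 CPM (-1.51) in the cluster led by S100a9 and 198 and 49.0 CPM (-2.01) in the cluster led by Retnlg.

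In mature PMN-like cells the difference in Csf3r was small, 257 CPM in DMSO and 223 CPM in DAB (-0.21, -0.39 to -0.02). Over the clusterings it ranged from -0.98 to -0.17, so its size depended on which cells took the name. Intermediate granulocyte-like cells had 76.1 and 36.8 CPM (-1.05, -1.36 to -0.74), with a range from -1.12 to -0.96. The chemokine-high class mixed unlike clusters: the one led by Cxcl3, which held most of its DAB cells, had 21.5 CPM in DMSO and 22.1 CPM in DAB, and the one led by Ccl3 had 293 and 164 CPM. The one led by Ccl4 and Spp1 had 12.5 and 8.84 CPM, near the background of 8.81 CPM in B cell-like cells of DMSO. Granulocyte progenitor-like cells went the other way, with 33.9 CPM in 191 DMSO cells and 49.7 CPM in 90 DAB cells (0.55, 0.12 to 0.99). Within this class the intermediate granulocyte markers summed to 12700 and 6170 CPM and the chemokine markers to 2730 and 767 CPM, and their part in the ratio was not tested.

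Csf1r, the M-CSF receptor, was also found in cells named as granulocytes in these cultures. In DMSO macrophage-like cells held 203 CPM, immature monocyte-like cells 190 CPM, mature monocyte-like cells 175 CPM, mature PMN-like cells 166 CPM and chemokine-high granulocyte-like cells 163 CPM, and each overlapped the next. Immature monocyte-like (183 to 196) and chemokine-high granulocyte-like cells (151 to 176) were apart in interval. Granulocyte progenitor-like cells held 78.1 CPM, intermediate granulocyte-like and activated dendritic cell-like cells held 24.6 and 24.2 CPM, and B cell-like cells, as background, held 2.94 CPM. The chemokine-high class also held immature monocyte markers, which summed to 13300 CPM in DMSO and 8630 CPM in DAB, against 11000 and 14000 CPM in the immature monocyte-like class, and their part in its Csf1r level was not tested. In mature PMN-like cells they summed to 1280 and 2500 CPM. The unnamed cluster led by Csf3r and Ddt held 219 CPM of Csf1r in DMSO (203 to 235). In DAB it held 195 CPM (177 to 215), the highest of 24 clusters. Over all cells Csf1r was 148 CPM in DMSO and 126 CPM in DAB, a ratio of -0.22 (-0.26 to -0.19), lower in DAB in 14 of the 20 clusters.

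Most Csf1r ratios within clusters were small, and 3 of the 20 were past the fold. Macrophage-like cells had 203 CPM in DMSO and 121 CPM in DAB (-0.74, -1.03 to -0.46). Activated dendritic cell-like cells had 24.2 and 12.2 CPM (-0.98, -1.75 to -0.27), from -1.10 to -0.00 over the clusterings. Intermediate granulocyte-like cells stood higher in DAB, with 24.6 and 47.2 CPM (0.94, 0.60 to 1.28), from 0.33 to 0.96 over the clusterings. Mature monocyte-like cells did not differ beyond counting error, with 175 and 177 CPM (0.02, -0.08 to 0.12), nor did mature PMN-like cells, with 166 and 169 CPM (0.03, -0.20 to 0.26, and from -0.31 to 0.12 over the clusterings).

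**Figure D3:**
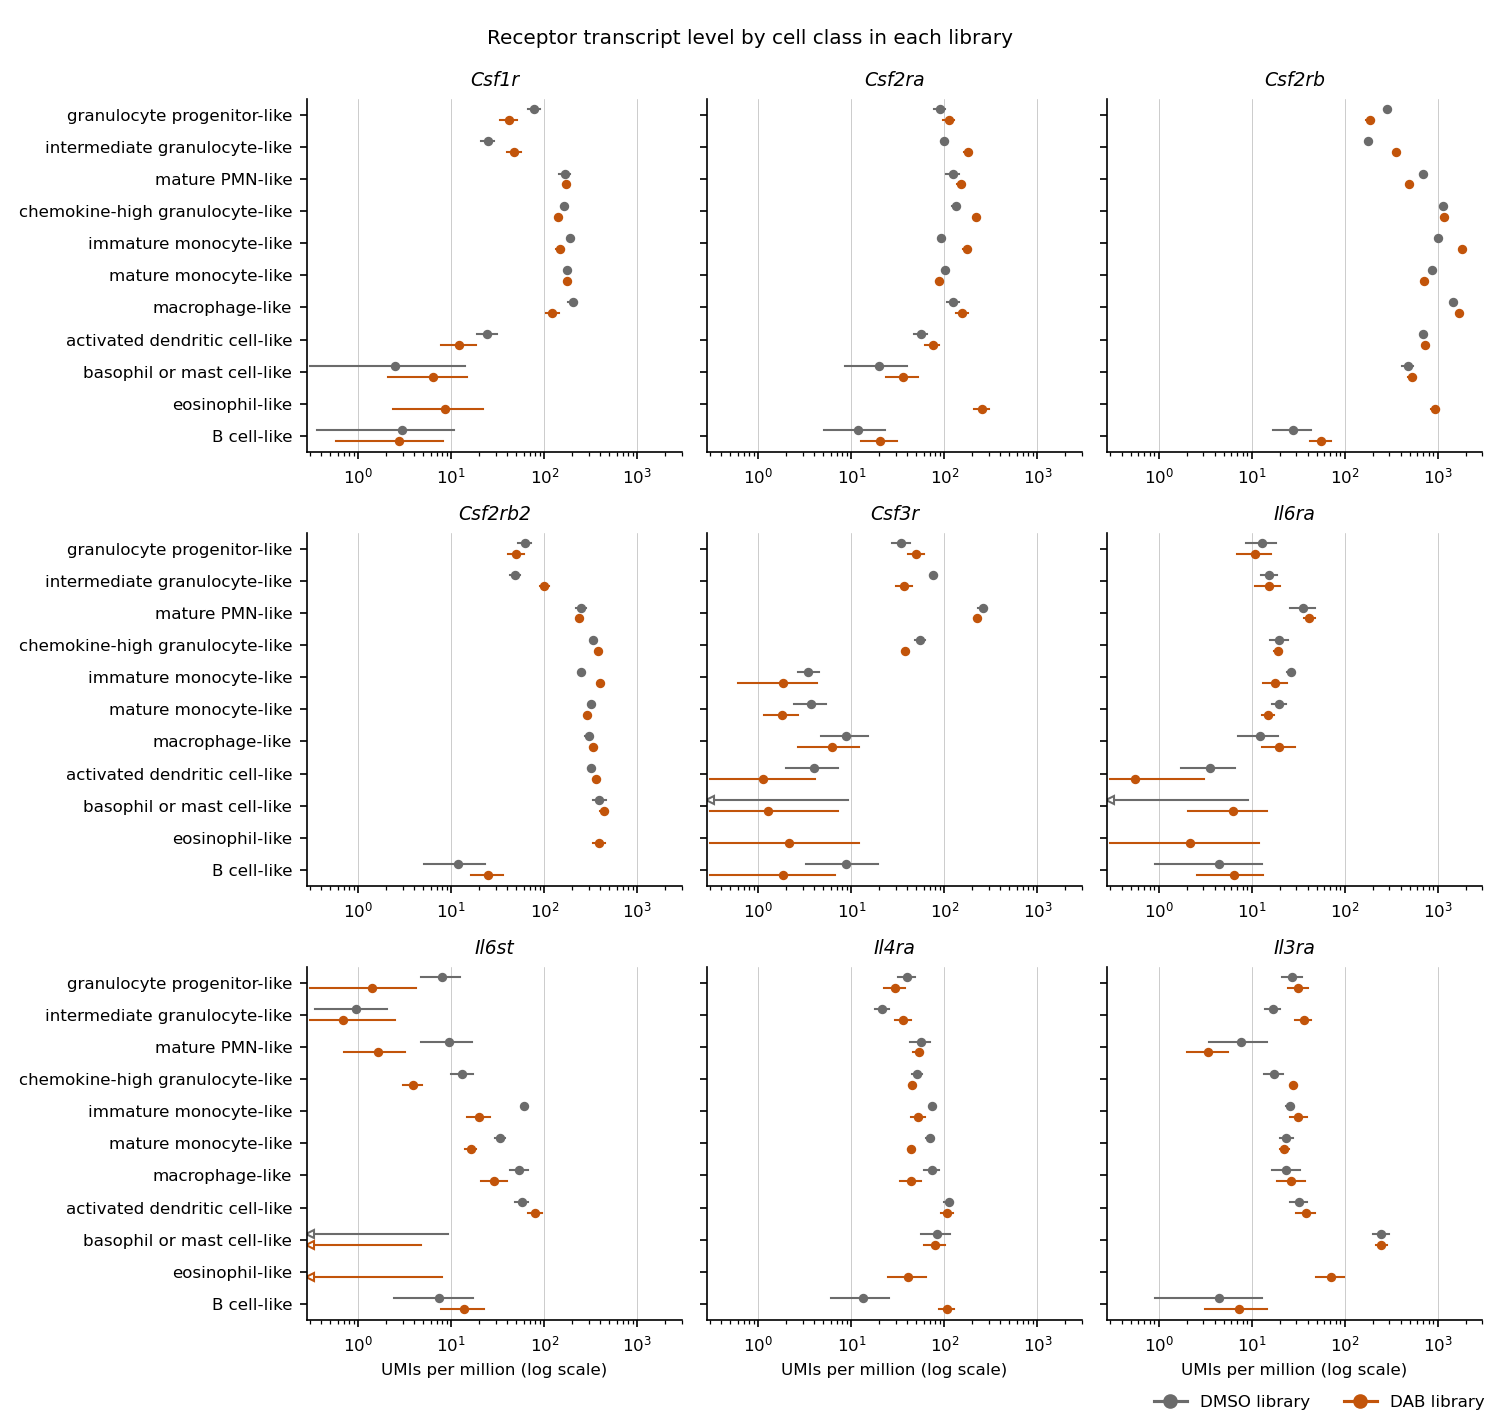
Transcript level of each receptor gene by cell class (y axis), as UMIs per 1000000 UMIs on a log axis, in the DMSO library (grey) and the DAB library (orange), with exact Poisson 95% intervals drawn down to 0.3. Open triangles at the left edge are counts of 0, and the T or NK cell-like class and the 5 eosinophil-like DMSO cells are left out. Csf3r peaks in mature PMN-like cells (257 and 223 CPM) and Il3ra in basophil or mast cell-like cells (246 and 249 CPM), while Il4ra of B cell-like cells shows a wide gap (13.2 and 107 CPM).

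Il4ra (chr7:125552120-125579474, plus strand), the chain that binds IL-4 and takes part in the IL-13 receptor, was 61.3 CPM in DMSO and 51.5 CPM in DAB over all cells, a ratio of -0.25 (-0.30 to -0.20). It was lower in DAB in 15 of the 20 clusters. In DMSO the classes fell into a gradual order from activated dendritic cell-like cells at 112 CPM to granulocyte progenitor-like cells at 39.3 CPM, with overlap at every step. Mature monocyte-like cells had 69.2 CPM in DMSO and 43.7 CPM in DAB (-0.66, -0.84 to -0.49), macrophage-like cells 73.0 and 43.7 CPM (-0.74, -1.23 to -0.26) and immature monocyte-like cells 74.2 and 52.5 CPM (-0.50, -0.76 to -0.25). The monocyte and macrophage classes thus shared a direction. Their makeup differed between the libraries too. In macrophage-like cells the class's own markers summed to 5870 and 3660 CPM and the immature monocyte markers to 11000 and 7430 CPM. In mature monocyte-like cells the own markers summed to 25200 and 23300 CPM, the immature monocyte markers to 3320 and 1530 CPM and the macrophage markers to 439 and 157 CPM. The part of these differences in the ratios of Il4ra and the other genes was not tested. Mature PMN-like cells, with 55.4 and 52.6 CPM, did not differ beyond counting error, and intermediate granulocyte-like cells were higher in DAB, with 21.2 and 35.8 CPM (0.76, 0.37 to 1.14).

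B cell-like cells stood apart for Il4ra. The 141 DMSO cells held 9 Il4ra UMIs and the 192 DAB cells held 116, which is 13.2 and 107 CPM and a ratio of 3.01 (2.04 to 4.18), from 1.85 to 3.19 over the clusterings. After thinning, 3 of 129 DMSO cells (2.33%, 0.482 to 6.65) held an Il4ra UMI, as did 32 of 177 in DAB (18.1%, 12.7 to 24.6), and without thinning 6.38% and 38.0% did. The class was the lowest in DMSO, overlapping intermediate granulocyte-like cells, and in DAB it overlapped the 106 CPM of activated dendritic cell-like cells. Its makeup also differed between the libraries. Ighm, the heavy chain of IgM, was 6370 CPM in DMSO and 2720 CPM in DAB. Vpreb3, also on the B cell marker list, was 58.8 and 132 CPM (both genes were named after their values were seen). The 7 mature monocyte markers, most of them MHC class II genes that B cells also express, summed to 6840 CPM in DMSO and 18700 CPM in DAB, and the macrophage markers to 125 and 540 CPM. All 7 B cell markers were detected in both libraries and summed to 8900 and 6670 CPM. The part of these differences in the Il4ra result was not tested.

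Feedback genes of cytokine signalling were also higher in B cell-like cells of DAB. Socs3, an inhibitor of IL-6 family and G-CSF signalling, had 2 UMIs in DMSO and 77 in DAB (2.94 and 70.8 CPM, a ratio of 4.59, 2.69 to 7.66). Cish had 11 and 103 UMIs (16.2 and 94.7 CPM, 2.55, 1.65 to 3.60). Il2rg, the partner chain of Il4ra, was 134 and 171 CPM (0.36, -0.01 to 0.73). All 5 members with at least 20 UMIs in this class were past the fold upward, namely Csf2ra, Csf2rb, Csf2rb2, Il6st and Il4ra. Of 7216 genes, 32.0% were past it upward, 15.2% downward and 47.2% in either direction. In DMSO these members held only 8, 19, 8, 5 and 9 UMIs, so each passed the limit of 20 through the DAB library. Such a limit favours members that are high in DAB, and the count is not read as a result. The level of Csf2ra here is also one that free RNA or misplaced cells can give. Apart from Csf2rb and Il4ra, the intervals of these 5 members include 0. Over the clusterings the ratios went down to 0.01 for Csf2rb, 0.10 for Il6st and 0.30 for Csf2rb2.

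**Figure D4:**
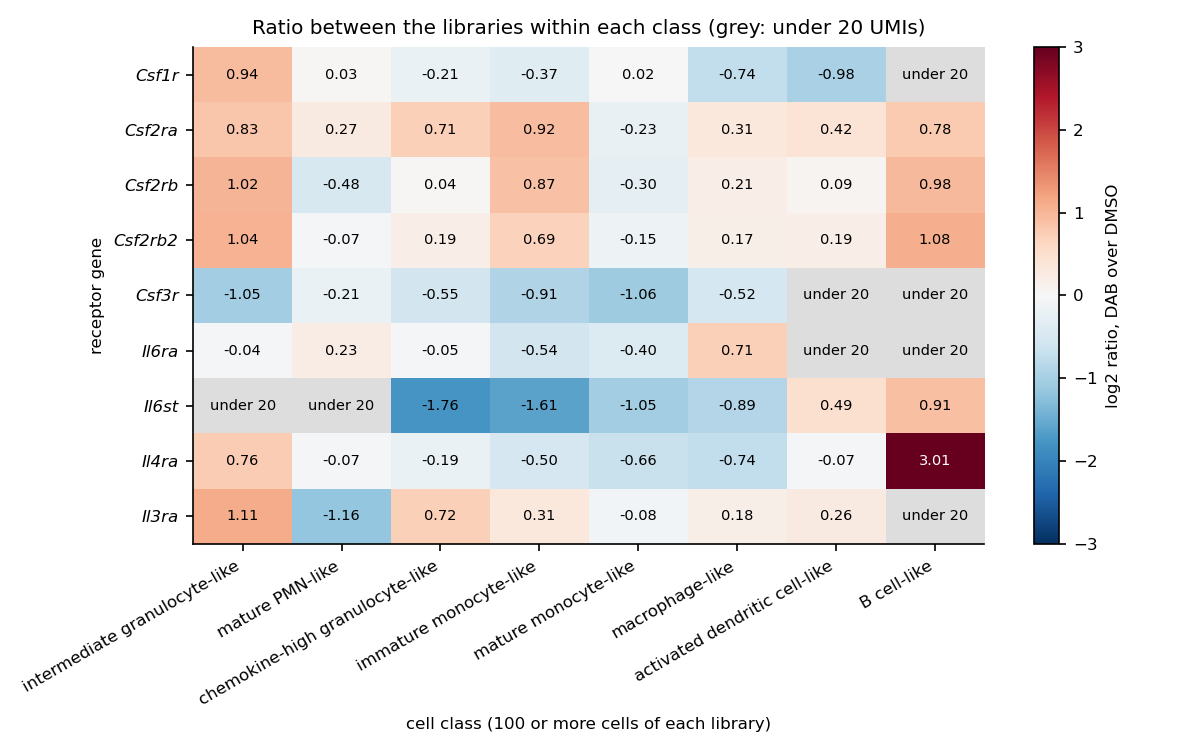
Log2 ratio of UMIs per 1000000 UMIs, DAB over DMSO, for each receptor gene (rows) in the 8 classes with 100 or more cells of each library (columns), red for higher in DAB, blue for lower and grey for under 20 UMIs over both libraries. Intermediate granulocyte-like cells are red for 6 of 8 members, Il6st is -1.76 in chemokine-high granulocyte-like and 0.49 in activated dendritic cell-like cells, and Il4ra is 3.01 in B cell-like cells.

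Counted over the 8 larger classes, members with at least 20 UMIs were past the fold upward 17 times and downward 15 times. The upward count includes the 5 of B cell-like cells, which passed the limit of 20 UMIs only through DAB. Of all genes with at least 20 UMIs in a class, 30.5% to 47.2% were past it in either direction, depending on the class. Of 64 class ratios, 16 took both signs over the clusterings, and 14 of these were not past the fold, while 19 of the 32 past the fold stayed past it in the same direction in every clustering that held the class. In intermediate granulocyte-like cells 6 of 8 members were past it upward (Csf1r, Csf2ra, Csf2rb, Csf2rb2, Il4ra and Il3ra) and Csf3r downward, against 29.9% and 16.1% of genes and 46.0% in either direction. The marker sums of other classes that were higher in DAB in these cells are given above with Csf2rb. Immature monocyte-like cells had 3 of 9 upward (Csf2ra, Csf2rb and Csf2rb2) and 3 downward (Csf3r, Il6ra and Il6st), with Il4ra just inside the fold, against 11.0%, 27.8% and 38.8%. Mature monocyte-like cells had 3 of 9 downward (Csf3r, Il6st and Il4ra) and none upward, against 21.8%, 19.3% and 41.1%. Both monocyte classes include Csf3r at background level, as do macrophage-like cells, with 13 and 8 UMIs.

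Macrophage-like cells had Il6ra upward, on 18 and 26 UMIs with an interval of -0.21 to 1.67, and Csf1r, Csf3r, Il6st and Il4ra downward among 9 members, against 15.9%, 20.7% and 36.6% of genes. Chemokine-high granulocyte-like cells had Csf2ra and Il3ra upward and Csf3r and Il6st downward among 9, against 12.8%, 17.7% and 30.5%. Mature PMN-like cells had Il3ra downward and none upward among 8, against 11.5%, 23.1% and 34.7%, and activated dendritic cell-like cells had Csf1r downward and none upward among 7, against 19.6%, 17% and 36.6%. In mature PMN-like and activated dendritic cell-like cells the members were near or under the share of all genes.

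For receptors with unlike chains, cells with at least 1 UMI of both were counted after thinning to 1500 UMIs. This left 8596 DMSO and 10185 DAB cells. For the GM-CSF receptor, Csf2ra with either beta gene was seen in 8.68% of cells in DMSO (8.09 to 9.29) and 15% in DAB (14.3 to 15.7). Since the product of Csf2rb2 serves IL-3, these and the class shares below are upper limits for cells seen with Csf2ra and Csf2rb. In immature monocyte-like cells the share was 9.29% of 980 (7.54 to 11.3) and 20% of 165 (14.2 to 26.9), and in chemokine-high granulocyte-like cells it was 14.2% (11.2 to 17.7) and 18.9% (17.2 to 20.6). Mature monocyte-like cells had 9.86% and 7.63% with overlapping intervals. No B cell-like cell of either library held both chains (0 of 129 and 0 of 177). The shares were close to the product of the shares of the single chains, 8.15% in DMSO and 14.1% in DAB over all cells.

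For the IL-3 receptor, Il3ra with either beta gene was seen in 1.68% of cells in DMSO and 2.58% in DAB. Basophil or mast cell-like cells led with 17.6% of 51 (8.40 to 30.9) and 21.0% of 81 (12.7 to 31.5). Both chains of the IL-6 receptor were seen together in 10 DMSO cells (0.116%, 0.0558 to 0.214) and 2 DAB cells (0.0196%, 0.00238 to 0.0709), and 5 of the 10 were immature monocyte-like. Thinned cells held Il6ra in 4.46% and 3.83%, and Il6st in 2.65% and 0.835%. At this depth such counts limit the detection of the pair and do not show where it is absent.

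Il4ra was seen with Il2rg, the type I partner, in 0.710% of cells in DMSO against 1.01% in DAB, and with Il13ra1, the type II partner, in 0.803% and 0.736%, with overlapping intervals in both pairs. Csf1r and Csf3r occurred in the same cell in 3.23% (2.87 to 3.63) and 1.86% (1.60 to 2.14), and in mature PMN-like cells in 8.60% (5.26 to 13.1) and 6.00% (4.66 to 7.58). In mature PMN-like cells these shares were close to the product of the single shares, 8.41% and 5.93%.

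**Figure D5:**
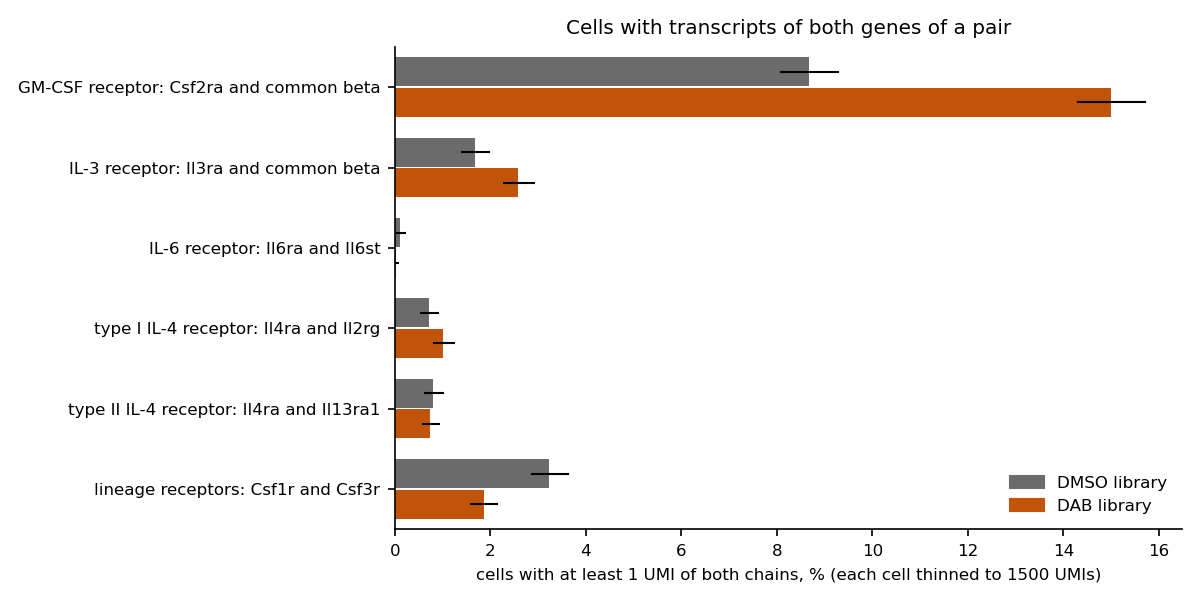
Percentage of cells with at least 1 UMI of both genes of a pair (x axis), after each cell was thinned to 1500 UMIs, in the DMSO library (grey, 8596 cells) and the DAB library (orange, 10185 cells), with exact binomial 95% intervals. The GM-CSF receptor pair, counted as Csf2ra with either beta gene, is at 8.68% and 15%, and the IL-6 receptor pair is near 0 in both.

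JAK, STAT and adaptor genes were followed as a further list. Of 19 JAK, STAT and adaptor genes, all with at least 200 UMIs, none was past the fold upward and 4 were past it downward, where 14.7% of all genes were. These were Stat5a (19 CPM in DMSO and 11.2 CPM in DAB, -0.76), Stat2 (28 and 16.9 CPM, -0.73), Stat5b (47.8 and 29.8 CPM, -0.68) and Stat3 (97.0 and 68.3 CPM, -0.50), the last pair named after its values were seen. When standardized, Stat3 was at -0.46 and 3 of the 19 were past the fold downward, against 13.3% of genes. No trait of the list is read from these counts. The median of the list was -0.05. Stat3, through which IL-6 and G-CSF signal, was 102 and 53.6 CPM in immature monocyte-like cells (-0.93, -1.18 to -0.68) and 184 and 231 CPM in activated dendritic cell-like cells (0.33, 0.14 to 0.52). Stat3 was also lower in chemokine-high granulocyte-like (-0.70), mature PMN-like (-0.68), macrophage-like (-0.57), intermediate granulocyte-like (-0.53) and mature monocyte-like cells (-0.26). In B cell-like cells its ratio was 0.16 (-0.18 to 0.51). Il6st had the same sign as Stat3 in each of these classes. The Il6st interval took both signs in intermediate granulocyte-like (-3.79 to 2.03, from 6 and 2 UMIs) and B cell-like cells (-0.62 to 2.72). A link between Stat3 and Il6st was not tested. Stat5b, through which GM-CSF signals, was lower over all cells (-0.68, and -0.60 when standardized). In mature monocyte-like cells it was 46.9 and 21.2 CPM (-1.14, -1.38 to -0.91), and no trait of that class is read from this value.

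Of 15 feedback and receptor turnover genes, Socs3 was the only one past the fold, where 14.7% of all genes were past it downward, with 69.5 CPM in DMSO and 40.8 CPM in DAB (-0.77, -0.82 to -0.72), and the median of the list was -0.26. Both monocyte classes had wide gaps, with 101 and 27.2 CPM in mature (-1.90, -2.08 to -1.72) and 97.9 and 38.5 CPM in immature monocyte-like cells (-1.34, -1.64 to -1.06). Mature PMN-like cells went the other way, with 61.3 and 96.3 CPM (0.65, 0.29 to 1.03). So did intermediate granulocyte-like cells, with 15.5 and 24.4 CPM (0.65, 0.19 to 1.11). Basophil or mast cell-like cells, on 2 and 26 UMIs (2.73, 0.74 to 5.85), and the B cell-like cells given above were also higher in DAB. Cish and Socs2, which GM-CSF signalling induces, were 197 and 190 CPM (-0.05) and 56.7 and 47.3 CPM (-0.26) over all cells. Within classes they went both ways. In mature monocyte-like cells Cish had a ratio of -0.64 (-0.73 to -0.54) and Socs2 one of -0.55 (-0.68 to -0.43). In intermediate granulocyte-like cells Cish had 0.51 (0.36 to 0.65) and Socs2 1.11 (0.52 to 1.69).

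Of 31 partner and related receptors, 25 had at least 200 UMIs, 3 were past the fold upward and 2 downward, against 13.3% and 14.7% of all genes, with a median of -0.03. When standardized, 2 were past it upward and 0 downward, against 11.0% and 13.3% of genes. Flt3, the receptor of a dendritic cell growth factor, was 0.630 CPM in DMSO and 1.78 CPM in DAB (1.50, 1.08 to 1.94). Activated dendritic cell-like cells held most of its UMIs in both libraries, with 14.4 and 109 CPM (2.92, 2.42 to 3.45). Il1rl1, the IL-33 receptor, was 2.27 and 3.92 CPM (0.79), and 0.34 when standardized. Il11ra1 and Il7r, the IL-11 and IL-7 receptor chains, stood lower in DAB at -1.01 and -0.67, but at -0.49 and -0.10 when standardized. The partners of Il4ra, Il2rg and Il13ra1, had ratios of 0.23 and -0.41.

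Of 12 ligand genes, 5 had at least 200 UMIs and 4 of these were past the fold upward, against 13.3% of all genes, with a median of 0.94. When standardized, 3 were past it upward, against 11.0% of genes. Il6, the cytokine also added to the medium, was 3.14 CPM in DMSO and 7.57 CPM in DAB (1.27, 1.08 to 1.46), and 1.35 when standardized. Basophil or mast cell-like cells held 72.1 and 179 CPM of it, and immature monocyte-like cells 5.28 and 16.9 CPM. Il4 was 1.3 and 3.19 CPM (1.29), but 0.12 when standardized, and basophil or mast cell-like cells held 129 and 121 CPM. Csf1, the Csf1r ligand, was 68.3 and 101 CPM (0.57) and Lif had a ratio of 0.94, both named after their values were seen. Csf2, which encodes GM-CSF and was likewise named after its values were seen, had 3 UMIs in DMSO and 112 in DAB (4.62, 3.03 to 6.92). All 3 DMSO UMIs lay in T or NK cell-like cells, and 42.0% of the DAB UMIs (47) lay in the unnamed cluster led by H2-Q10.

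Across 48 profiles, each a cluster in 1 library with at least 50 cells, the genes whose levels followed each receptor most closely were sought among 9628 genes with at least 20 CPM in a profile. The profiles share 2 libraries and differ in depth, so the correlations (Pearson r of log2(CPM + 10)) describe these profiles only. Csf3r was followed by Nlrp12 (0.94), Arg2 (0.94) and Spatc1 (0.92), Csf1r by C130050O18Rik (0.91), 3110082I17Rik (0.89) and Ralb (0.89), and Csf2rb by Adam8 (0.91), Nagk (0.85) and Rbms1 (0.84). Csf2ra was followed by B430306N03Rik (0.90), the urokinase receptor gene Plaur (0.90) and Clec5a (0.86), and Csf2rb2 by Nagk (0.85), Nek6 (0.81) and Cd200r1 (0.80). Il6ra was nearest to N4bp1 (0.89), Il1rl2 (0.88) and Il1rap (0.87), and Il6st to 2510009E07Rik (0.89), Ift43 (0.88) and Mertk (0.88), a macrophage receptor for dying cells. Il3ra was nearest to Glb1 (0.84), Cyp11a1 (0.82) and Esyt1 (0.81), and Il4ra to Trim14 (0.73), St3gal3 (0.73) and Crtc3 (0.72).

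Among the members, Csf2rb and Csf2rb2 were most alike over the 48 profiles (r = 0.91), which reads given to the wrong gene could raise. Csf1r and Il6ra had 0.75, Csf1r and Csf2ra 0.74, and Csf3r and Il6ra 0.71. The chains of the IL-6 receptor, Il6ra and Il6st, had -0.09, and Csf3r and Il3ra had -0.64. Levels also followed depth. The correlation with the log2 median UMI count of a profile was -0.75 for Csf3r, -0.48 for Il6ra and 0.48 for Il3ra, and it lay between -0.02 and 0.26 for the other members. The part of depth in these correlations was not tested.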

How the data were processed

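The authors loaded DMSO- and DAB-treated MDSC on the 10x 5′ v2 kit. Per their processing notes they counted with Cell Ranger 7.0.0 against mm10, and they deposited 1 matrix of UMI counts per library, not normalized, with 9855 DMSO and 11631 DAB barcodes, 106792967 and 165506902 UMIs. Whether intronic reads were counted was not stated. Cells were filtered after the study's limits on mitochondrial share and depth with Python 3.11.15, numpy 2.4.6, scipy 1.17.1, igraph 0.11.9 and leidenalg 0.10.2: barcodes over 10% mitochondrial UMIs (55 and 89) and neighbours of simulated doublets (768 and 1066), called by 1 method in place of the study's pair of doublet callers, were removed, and none lay beyond 4 median absolute deviations. Pearson residuals of 3000 genes, without the 9 receptor genes, were aligned over 40 components and clustered (Leiden, resolution 0.9). A cluster took the name of the marker list with the highest mean fold if at least 3 of its markers, and most of those detected, were raised by 1 on the log2 scale and that list alone led the top 10 genes.

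UMIs were summed per library, class or cluster. Ratios have exact conditional, levels exact Poisson and shares exact Clopper-Pearson intervals, at 95% and for counting error only. A count of 0 allows 3 counts. No test was run, since each condition has 1 library. In Poisson counts simulated for the comparison of all cells (12121 genes, 200 changed), 95.4% of intervals held the true ratio. These counts had no spread between cells or cultures, so this checks the computation and not the fit of the intervals to the data. Sequences were read from GENCODE vM21 (GRCm38). Genes named beside the members were, per list, the 2 with the largest ratio in each direction past the fold among genes with at least 200 UMIs, 5 fixed partner and feedback genes (Cish, Socs2, Socs3, Il2rg and Il13ra1), and the 3 genes most like each member. The members and lists were chosen with earlier results of these data known. Alternatives changed the cell filter, doublet removal, scaling, weighting, threshold, clustering, thinning and the beta chain genes. In a sum over cells, less RNA per cell and fewer cells with the RNA cannot be told apart.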

Additional observations from a re-analysis of the deposited data

Results flagged for a closer look

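Csf1r differed in direction between classes. Its log2 ratio was 0.94 in intermediate granulocyte-like cells and -0.98 in activated dendritic cell-like cells, and both counting intervals lay on 1 side of 0. With doublets kept the ratios were 0.33 and -0.00. Il4ra had a ratio of 3.01 in B cell-like cells and of -0.74 in macrophage-like cells, and with doublets kept of 1.85 and -0.70. Each class had 1 sum per library, and the difference between classes was not tested.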

How the results depend on the processing

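No paired analysis was possible because each condition has 1 library. Csf2ra was past the fold upward and Csf3r and Il6st downward under every alternative except a threshold of 1, which left 0 members upward. With the mean over cells, 2 members were upward. Within classes, 23 calls were downward with doublets kept, against 15. Class ratios past the fold that changed sign were Il3ra in mature PMN-like cells, 0.05 with doublets kept and 0.79 without alignment, and Csf3r in immature monocyte-like cells, 0.12 with another clustering seed, and 14 class ratios not past the fold also took both signs. Over 10 other clusterings the highest class of Csf3r and of Il6ra stayed the mature PMN-like class in both libraries, and that of Il3ra among the larger classes was kept in 4 in DMSO. That seed, 2 others and the removal of the clusters led by Gm15564 and Gm26917 were chosen after seeing the data. The causes were not tested. Over all cells the ratios ranged from 0.60 to 0.74 for Csf2ra, -1.06 to -0.77 for Csf3r, -2.07 to -1.42 for Il6st, 0.25 to 0.48 for Csf2rb2, 0.36 to 0.51 for Il3ra and -0.26 to 0.01 for Il4ra. Without alignment no immature monocyte-like or macrophage-like class with 100 cells of each library was found. With 1 library per condition the spread between cultures is unknown, and members under about 10 UMIs in a class have wide intervals.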
